A study of Drosophila melanogaster with 4 samples.

Results

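The genes described here are 10 markers of the somatic cells of the *Drosophila* testis niche, taken by FlyBase symbol: *tj*, *eya*, *zfh1*, *chinmo*, *esg*, *Fas3*, *CadN*, *hh*, *ptc* and *magu*. Of these, 9 had a row among the 17409 genes counted in each library. The identifier of *esg* in the annotation matched none of the rows, so *esg* was not analysed here. All 9 passed the filter on low counts, and their raw counts per library ran from 14 to 5713.

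Sperm stem cells of the fly sit at the tip of the testis around the hub, a small cluster of non-dividing somatic cells that sends short-range signals. Somatic cyst stem cells lie beside them, and their daughters, the cyst cells, wrap the germ cells and stay with them until the sperm are released into the seminal vesicle. The markers of these cells are not exclusive to them. Fas3 is a junction protein of many epithelia, Hedgehog and its receptor Patched pattern many epithelial sheets, CadN is abundant in neurons, and Zfh1 is also made in mesoderm and muscle precursors.

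Poly(A) RNA came from males of the strain Oregon-R-modENCODE aged 4 to 5 days, reared under constant light and held apart from females after their first day. Testes were cut away from the seminal vesicles, the sacs that store mature sperm, and the seminal vesicle samples also include the terminal epithelium, where testis and vesicle join. Each tissue had 2 libraries, which the series text gives as dissections of 2 consecutive days. Gene counts ran from 11120405 to 15528462 per library, and the number of animals per library is not given in the sources used here. The labels do not say that both tissues came from the same animals. No treatment or mutation separates the groups, so each comparison sets testis against seminal vesicle in wild-type males.

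Levels are CPM, the counts of a gene per 1000000 gene counts of its library, after TMM scaling, which sets libraries to a common scale from the genes between the extremes. A log2 fold change is the seminal vesicle value minus the testis value ± its standard error (SE). P-values are from the quasi-likelihood test of edgeR and were adjusted over all 11737 genes tested. Tissue levels are mean ± SD (n = 2). The tissues differed in most of the transcriptome: 86.6% of the tested genes passed an adjusted p of 0.05, with 42.1% toward seminal vesicle and 44.5% toward testis (4944 and 5223 genes). With spike-in factors these were 3272 and 6372 genes, a scaling confounded with tissue because the spike-in pools differed between tissues. Passing the test is therefore the ordinary case here, and the size and direction of a change say more than the call. In bulk RNA, fewer cells of a type and less RNA per cell cannot be told apart.

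The niche markers did not move as a block. *chinmo*, *zfh1*, *CadN* and *tj* were higher in testis, while *hh*, *Fas3*, *magu* and *ptc* were higher in seminal vesicle, which is 4 of 9 in each direction. Only *eya* did not pass the test, and it was called toward testis with spike-in factors, which gave 4 and 5. Among the 9, 8 were called and changed by over 2-fold (77.2% of tested genes) and 5 by over 4-fold (58.9%). Genes known to share the hub as their site of expression were thus found on both sides: *CadN* was 3.61-fold higher in testis, and *Fas3* and *hh* were 26-fold and 31.5-fold higher in seminal vesicle. The median log2 fold change of the 9 genes was 0.33, against -0.11 over all genes tested. The libraries of the 2 tissues did not overlap for any of the 9, as for 94.7% of all tested genes.

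**Figure D1:**
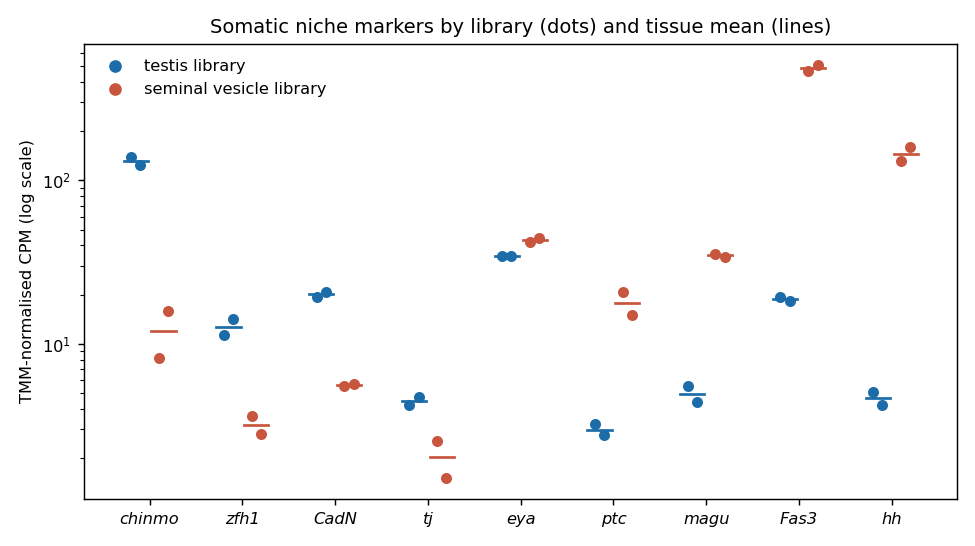
Level of each of the 9 markers in every library, as TMM-normalised CPM on a log axis, with dots for libraries and lines for tissue means. The 4 genes on the left lie higher in testis, *eya* sits at nearly the same height in both tissues, and the 4 on the right lie higher in seminal vesicle, up to 511 CPM for *Fas3*.

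The transcription factors of the cyst lineage were low to moderate in testis. *tj* (traffic jam; 2L, 19464267 to 19467758, plus strand) encodes a large Maf factor of the early cyst lineage. Its level was 4.22 and 4.73 CPM in the testis libraries and 2.53 and 1.5 CPM in the seminal vesicle libraries. Both testis libraries lay above both seminal vesicle libraries, and the seminal vesicle values rest on 31 and 14 raw counts. The change was 2.17-fold (log2 fold change -1.12 ± 0.32, adjusted p = 0.016). Leaving out testis replicate 1 or replicate 2 ended the call (adjusted p = 0.129 and 0.198). Of the 4 changes toward testis this was the smallest.

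*zfh1* (zinc finger homeodomain 1; 3R, 30765926 to 30789202, plus strand) encodes a repressor needed for the self-renewal of cyst stem cells. It stood at 11.3 and 14.1 CPM in testis and at 3.59 and 2.79 CPM in seminal vesicle. The gap was wider than the spread within either tissue (3.94-fold, log2 fold change -1.98 ± 0.24, adjusted p = 0.000484). The corepressor gene *CtBP*, whose protein binds Zfh1, went the other way, with a log2 fold change of 1.79 ± 0.21 (adjusted p = 0.000381). Its call was lost with spike-in scaling (adjusted p = 0.0567).

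*chinmo* (2L, 1651258 to 1704682, plus strand) encodes a BTB zinc finger protein that keeps cyst stem cells male in identity. It had 139 and 125 CPM in testis, the highest level of the 9 there also per kb of exon, against 8.16 and 15.9 CPM in seminal vesicle. Both testis libraries were far above both seminal vesicle libraries. The fall was 11.1-fold (log2 fold change -3.47 ± 0.36, adjusted p = 0.00028), and 67.3% of tested genes changed by less. Of 12 male germline genes, 10 were, like *chinmo*, higher in seminal vesicle replicate 2 than in replicate 1, the exceptions being *vas* and *aly*. *chinmo* stood at 6.17% and 12% of its mean testis level in the 2 seminal vesicle libraries, and the 12 germline genes summed to 7.43% and 15.5% of theirs. That sum is mostly *betaTub85D*, *Mst87F* and *dj*, and single germline genes differed widely. They were from 3.38-fold (*ProtB*) to 276-fold (*fzo*) lower in seminal vesicle, with *bam* at 32.3-fold and *bgcn* at 35.7-fold. The part of germline transcripts in the *chinmo* level was not tested. *tj*, *zfh1* and *CadN* kept larger shares of their testis level in seminal vesicle: 56.6% and 33.5% for *tj*, 28.3% and 21.9% for *zfh1*, and 27.2% and 28.3% for *CadN*.

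*eya* (eyes absent; 2L, 6527447 to 6546976, minus strand) encodes a transcriptional cofactor and phosphatase that marks differentiating cyst cells. Its level was 34.5 and 34.2 CPM in testis and 42 and 44.6 CPM in seminal vesicle. The difference did not pass the test (log2 fold change 0.33 ± 0.16, 95% interval -0.06 to 0.73, adjusted p = 0.0943), and the interval reaches from just below 0 to that upper bound. Its direction depended on scaling, at -0.05 with library size only and -0.73 with spike-in factors. Within a library, where scaling plays no role, *eya* counts per kb of exon exceeded those of *tj* by 7.73 and 6.86 times in testis and by 15.7 and 28.1 times in seminal vesicle. The 95% counting intervals of these ratios did not meet across tissues (5.43 to 10.1 over both testis libraries, 10.9 to 51.9 over both seminal vesicle libraries).

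Genes that act with Eya were called in both directions. *so* encodes the homeodomain partner of Eya, and it was 3.36-fold higher in seminal vesicle (9.3 ± 1.37 against 31.2 ± 0.97 CPM, adjusted p = 0.000218). *dac*, a further member of the retinal determination network, was 15.8-fold higher in testis (adjusted p = 9.52e-05). *toy* was low, at 1.03 and 0.817 CPM in testis, and at the detection limit in seminal vesicle, at 0 and 0.214 CPM. Among the 5 partners tested, 1 rose in seminal vesicle, 3 were higher in testis and 1 was not called, at a median log2 fold change of -1.99. Without either testis library, 1 was called toward testis.

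The hub adhesion genes went in opposite directions. *Fas3* (Fasciclin 3; 2L, 18320102 to 18393441, plus strand) encodes an immunoglobulin adhesion protein of septate junctions and the classic outline marker of the hub. It was counted at 19.3 and 18.3 CPM in testis and at 466 and 511 CPM in seminal vesicle. The log2 fold change of 4.7 ± 0.28 corresponds to 26-fold (adjusted p = 4.22e-05), and 833 of the tested genes rose by more. Per kb of exon, *Fas3* in seminal vesicle lay above 90.8% of tested genes, and in testis above 33.3%.

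*CadN* (N-cadherin; 2L, 17647053 to 17778340, minus strand) encodes a cadherin that joins hub cells to each other. It stood at 19.4 and 20.8 CPM in testis and fell to 5.47 and 5.68 CPM in seminal vesicle. Replicates of each tissue were close, and the change was 3.61-fold (log2 fold change -1.85 ± 0.17, adjusted p = 0.000165). In raw counts, which are not set to gene length, *Fas3* and *CadN* were close in testis, with 320 against 321 in replicate 1 and 314 against 357 in replicate 2. In seminal vesicle the same pair gave 5713 against 67 and 4766 against 53. Per kb, the ratio of *Fas3* to *CadN* was 2.17 and 1.92 in testis and 186 and 196 in seminal vesicle.

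The other adhesion genes followed *Fas3* rather than *CadN* in direction, with 1 exception. Of 8 cadherin and immunoglobulin adhesion partners tested, 7 were higher in seminal vesicle and 1 was higher in testis, at a median log2 fold change of 2.12. *arm*, the beta-catenin of adherens junctions, rose 4.97-fold and *Nrg* 6.29-fold (adjusted p = 0.000289 and 0.000206). *ed* and *Fas2* had the largest changes, 28.3-fold and 12.6-fold. The E-cadherin gene *shg* rose 3.79-fold, a gene chosen after its values were seen. The exception was *CadN2*, the neighbouring paralog of *CadN* (8631 bp away on the same strand), also named after its values were seen. Its level was 3.86 and 6.53 CPM in testis and 1.39 and 1.18 CPM in seminal vesicle (4-fold lower there, adjusted p = 0.00355). Its call was lost without testis replicate 2.

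Genes of septate junctions and epithelial polarity bear on *Fas3*, since the same protein marks many epithelia. Of 15 tested, 13 rose in seminal vesicle, 2 were higher in testis and none was left uncalled, at a median log2 fold change of 3.71. *Cont* (8.29-fold), *Gli* (30.4-fold) and *Lac* (25.4-fold), all septate junction genes, rose with adjusted p between 3.35e-05 and 0.000192. The exceptions were *nrv2*, a sodium pump beta subunit (523 and 535 against 183 and 176 CPM), and the epithelial factor gene *grh* (11.3 and 11.8 against 0.571 and 2.04 CPM). *grh* moved by over 1.5 times with 1 library, from -3.22 to -2.49 without seminal vesicle replicate 1 and to -4.33 without replicate 2. The summed level of this list was 944 and 891 CPM in testis and 4065 and 4527 CPM in seminal vesicle. Most of the testis sum was *nrv2*, which was higher in testis. The part of the epithelium in the *Fas3* level was not tested.

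The Hedgehog ligand gene had the largest rise among the 9 markers, and the gene of its receptor rose less. Hedgehog is secreted by hub cells and binds Patched on cyst stem cells, where it relieves the block on Smoothened, and *ptc* is itself a known target of the pathway. *hh* (3R, 23128169 to 23141906, minus strand) had 5.07 and 4.2 CPM in testis and 132 and 159.8 CPM in seminal vesicle. The rise was 31.5-fold (log2 fold change 4.98 ± 0.26, adjusted p = 3.24e-05), and 699 of the tested genes rose by more. *ptc* (2R, 8649649 to 8665223, plus strand) had 3.2 and 2.74 CPM in testis and 20.6 and 15 CPM in seminal vesicle. Its rise was 6.02-fold (log2 fold change 2.59 ± 0.24, adjusted p = 0.000173). Per kb, ligand transcripts outnumbered receptor transcripts by 3.69 and 3.57 times in testis and by 14.9 and 24.8 times in seminal vesicle, and the 2 seminal vesicle libraries differed by more than their counting intervals (13.1 to 17.1 and 20.9 to 29.7).

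**Figure D2:**
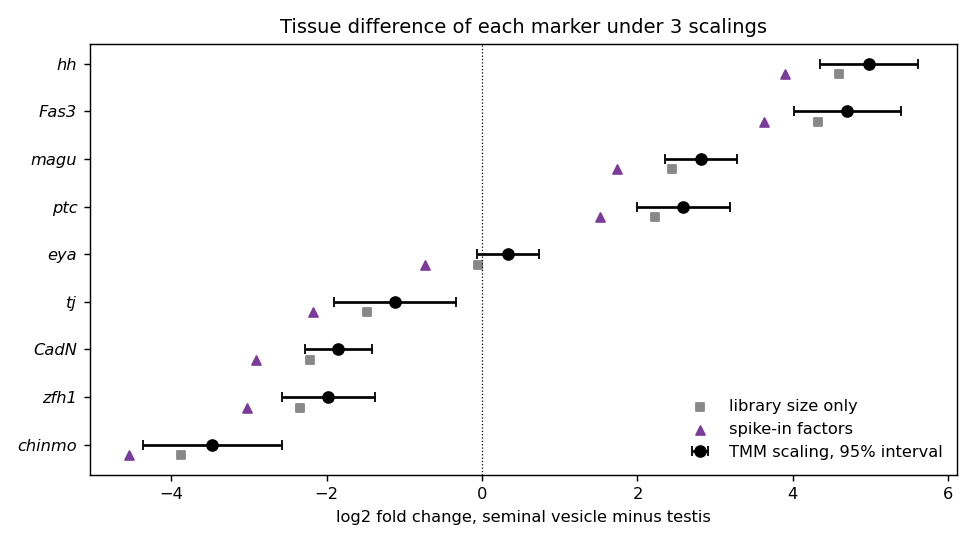
Log2 fold change of each marker, seminal vesicle minus testis, with its 95% interval under TMM scaling (black) and the values with library size only (grey squares) and spike-in factors (purple triangles). The order of the 9 genes is the same in all 3, and *eya* is the gene whose sign changes.

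Most other components of the Hedgehog pathway were also higher in seminal vesicle. Of 18 tested, 14 were higher in seminal vesicle, 3 were higher in testis and 1 was not called, at a median log2 fold change of 1.79. With spike-in scaling the numbers were 9 and 4, and without testis replicate 1 they were 14 and 1. *shf*, which helps Hedgehog spread, rose 19.3-fold, and *dally*, a glypican that binds it, rose 10.7-fold (adjusted p = 3.35e-05 and 4.38e-05). The signal transducer *smo* rose 5.38-fold and the effector *ci* 6.14-fold (adjusted p = 0.000164 and 8.22e-05), both named after their values were seen. The kinase gene *sgg* rose 2.36-fold (adjusted p = 0.00637) and lost its call with spike-in scaling.

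The Hedgehog genes higher in testis were *cos*, *slmb* and *en*. *cos* encodes the kinesin-like scaffold of the pathway and was 2.28-fold higher there (adjusted p = 0.00269), a call lost without testis replicate 1 (adjusted p = 0.0801). *slmb*, an F-box gene that limits Ci, was 1.81-fold higher (219 ± 4.78 against 121 ± 31.9 CPM, adjusted p = 0.0272), a call lost without either testis library (adjusted p = 0.0926 and 0.0838). *en*, which activates *hh* in embryonic and disc epithelia, was higher in testis although *hh* was not: 1.69 and 2.57 CPM in testis against 0.163 and 0.321 CPM in seminal vesicle, from 2 and 3 raw counts there (adjusted p = 0.00195). *cos* and *en* were also named after their values were seen.

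*magu* (2R, 10052541 to 10063712, plus strand) encodes a secreted protein, also called Pentagone, that widens the range of BMP signals in the wing disc and is made in the hub. It had 5.49 and 4.38 CPM in testis and 35.5 and 34.1 CPM in seminal vesicle. Both tissues were tight and far apart (7.05-fold, log2 fold change 2.82 ± 0.19, adjusted p = 5.41e-05). Its ratio to *ptc* per kb stayed near one value, at 2.95 and 2.74 in testis and 2.95 and 3.9 in seminal vesicle, with overlapping counting intervals (1.88 to 4.22 and 2.52 to 4.79). Of the exon bases of *magu*, 18.8% lie opposite exons of other genes, among them *PIG-N*, whose level went the other way (44.4 ± 0.633 against 5.66 ± 0.034 CPM). How the counting treated strand is not given in the sources used here. Among genes lying wholly inside exons of the opposite strand, 82 of 130 had at least 10 counts over the libraries, against 9 of 370 inside exons of their own strand.

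BMP pathway genes were mostly higher in seminal vesicle as well. Of 12 tested, 10 were higher in seminal vesicle, none was higher in testis and 2 were not called, at a median log2 fold change of 2.77. With spike-in scaling the numbers were 8 and 2. The ligand gene *gbb* rose 27.4-fold (7.66 and 7.82 against 219.7 and 205 CPM) and the receptor gene *tkv* 19.1-fold. *brk*, a repressor of BMP targets, rose from 0.181 and 0.0583 to 4.57 and 3.97 CPM, and its log2 fold change of 5.07 was 6.04 without testis replicate 1. *Dad*, an inhibitory Smad gene induced by BMP signals, rose 11.7-fold and *dpp* 2.61-fold, both chosen after their values were seen. *dpp* lost its call with spike-in scaling (adjusted p = 0.388). *sax* and *sog* were the genes not called (log2 fold change 0.2 ± 0.19 and -0.17 ± 0.21). *sax* was called toward seminal vesicle without seminal vesicle replicate 1, and *sog* toward testis with library size only and with spike-in factors.

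**Figure D3:**
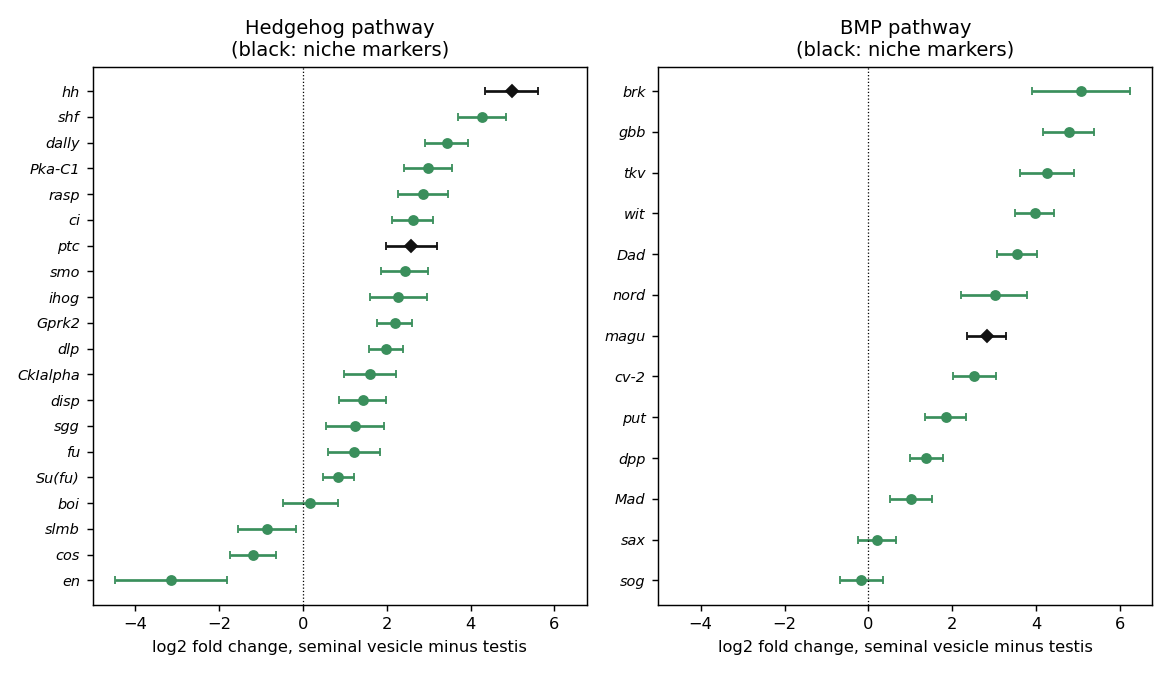
Log2 fold change with 95% interval, seminal vesicle minus testis, for the tested genes of the Hedgehog pathway (left) and the BMP pathway (right), ordered by size. Black diamonds are *hh*, *ptc* and *magu*, green circles the other genes. *hh* lies at the top of its pathway at 4.98 and *en* at the bottom at -3.15.

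Ratios between markers within a library do not depend on the scaling between tissues. The ratio of *hh* to *CadN* per kb was 1.59 and 1.23 in testis and 147 and 171 in seminal vesicle. By contrast the ratio of *Fas3* to *hh* was 1.37 and 1.56 in testis and 1.26 and 1.15 in seminal vesicle, so these genes rose nearly in step. Among the factors higher in testis, the ratio of *chinmo* to *zfh1* was 6.77 and 4.86 in testis and 1.25 and 3.12 in seminal vesicle. Its counting interval in seminal vesicle replicate 1 (0.865 to 1.82) included equal levels. The interval of seminal vesicle replicate 2 (2.05 to 4.93) met that of testis replicate 2 (4.25 to 5.57), and replicates of a tissue differed by more than their intervals. The ratio of *zfh1* to *tj* was 1.35 and 1.51 in testis and 0.717 and 0.938 in seminal vesicle, with counting intervals that overlapped across tissues.

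**Figure D4:**
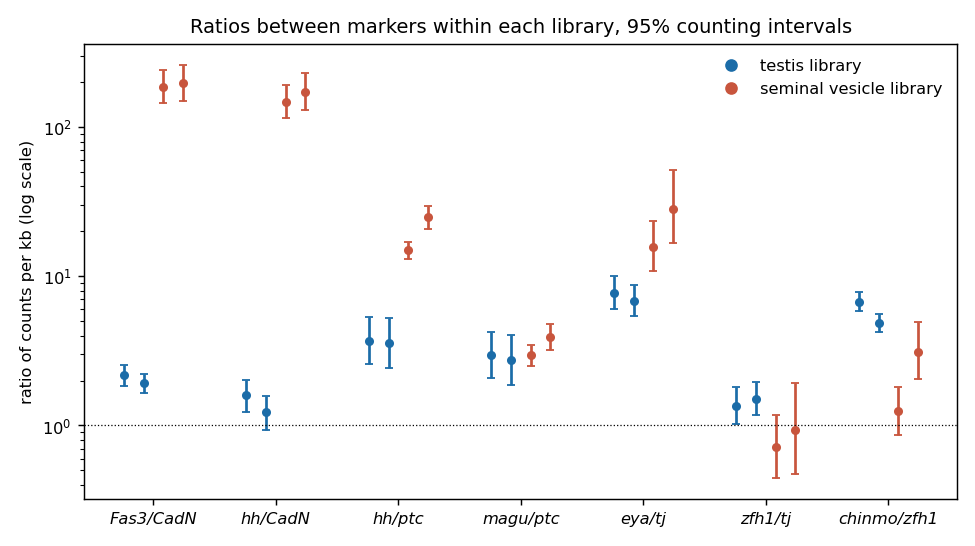
Ratio of counts per kb of exon between pairs of markers in each library, on a log axis, with 95% counting intervals (counting error only). *Fas3*/*CadN* and *hh*/*CadN* differ between tissues by far more than their intervals, whereas *magu*/*ptc* and *zfh1*/*tj* overlap.

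The order of the markers by level per kb differed between the tissues. In testis *chinmo* (10.5 ± 0.799 CPM per kb) and *eya* (9.31 ± 0.0489 CPM per kb) led, followed by *Fas3* at 2.84 ± 0.105 CPM per kb. Neighbours among *hh*, *zfh1*, *magu*, *CadN* and *tj* could not be ranked, since each overlapped the next between 1.95 and 1.28 CPM per kb, and *ptc* was lowest at 0.538 ± 0.0582. In seminal vesicle *Fas3* (73.9 ± 4.75 CPM per kb) and *hh* (61.6 ± 8.2 CPM per kb) came first. *eya* (11.7), *magu* (10.8) and *ptc* (3.23) followed without overlap between neighbours. *chinmo*, *tj* and *zfh1* overlapped their neighbours between 0.952 and 0.461 CPM per kb, and *CadN* was lowest at 0.387 ± 0.0104.

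Further genes of the hub and the cyst lineage also split. Of 6 other hub genes tested, 3 rose in seminal vesicle, 1 was higher in testis and 2 were not called (median log2 fold change 0.68). With spike-in scaling 2 were called toward seminal vesicle and 3 toward testis (median -0.38), and with library size only 3 in each direction. The hub ligand gene *upd1*, which activates JAK-STAT signalling, was on the testis side, with 17.7 and 21.6 CPM in testis and 0.735 and 2.89 CPM in seminal vesicle (11.5-fold, adjusted p = 0.000857). Its log2 fold change of -3.52 was -2.75 without seminal vesicle replicate 1 and -4.74 without replicate 2. *puc*, a phosphatase gene induced by JNK signalling, rose 8.47-fold, and *lin* was not called (log2 fold change -0.22 ± 0.15). The call on *lin* was gained toward testis with library size only and with spike-in factors.

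Of 11 other cyst lineage genes tested, 9 rose in seminal vesicle, 1 was higher in testis and 1 was not called, at a median log2 fold change of 1.75. With spike-in scaling these numbers were 5 and 2. *Egfr*, which cyst cells use to enclose the germline, rose 24-fold and *Wnt2* 17.5-fold (adjusted p = 3.12e-05 and 3.35e-05). *Stat92E* rose 3.55-fold and *Akr1B* 2.49-fold, and both calls were lost with spike-in scaling. *ken*, a repressor gene that also serves cyst stem cells, was 1.57-fold higher in testis (adjusted p = 0.0122), a call lost without either testis library. A list of zinc finger relatives of the markers, which also held the corepressor gene *CtBP*, had 3 genes tested. Of the relatives, *ken* was called toward testis and *zfh2* was not called, while *CtBP* was higher in seminal vesicle. *sna* had 0 counts in all libraries.

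Markers of other cell types moved with the tissues. All 12 male germline genes tested were higher in testis, with *Mst87F* at 1895 ± 384 against 354 ± 152 CPM and *dj* at 1542 ± 43.9 against 257 ± 126 CPM. The log2 fold change of *dj* was -3.21 without seminal vesicle replicate 2, against -2.59 with all libraries. *aly* had 2 and 0 raw counts in the seminal vesicle libraries, and *fzo* was at 0.408 and 1.18 CPM there. The early germline gene *vas*, named after its values were seen, was higher in seminal vesicle replicate 1 (1.96 CPM) than in replicate 2 (0.643 CPM). All 9 muscle genes tested rose in seminal vesicle, *Mhc* by 41.1-fold, *Act57B* by 60.6-fold, *up* by 61.8-fold and *Tm2* by 103-fold, and the list summed to 79.5 to 90.5 CPM in testis and 3250.5 to 4385 CPM in seminal vesicle. *zfh1* is also used by muscle precursors, and the part of muscle in its level was not tested.

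Neuronal markers bear on *CadN* and *chinmo*, both also expressed in neurons. Of 5 tested, 4 rose in seminal vesicle and 1 was higher in testis. *Syt1* was not tested, with 7 and 10 counts in testis against 2 and 0 in seminal vesicle. With *Syt1* included, the list summed to 26.1 and 27.9 CPM in testis and 75.3 and 94.8 CPM in seminal vesicle. *Syn* rose 47-fold, *elav* 9.16-fold and *nSyb* 3.08-fold, while *brp* (named after its values were seen) was 5.3-fold higher in testis. With spike-in scaling 2 were called toward seminal vesicle and 1 toward testis, and *nSyb* was not called (adjusted p = 0.129). The part of neurons in the levels of *CadN* and *chinmo* was not tested.

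Most remaining cell types had low marker levels in testis. All 3 hemocyte genes tested rose in seminal vesicle, with *Pxn* at 73.2-fold, *srp* at 2.95-fold and *Hml* at 2.84-fold (adjusted p = 0.0262 for *Hml*). *Pxn* alone, at 248 and 161 CPM, made up most of the list sum of 285 and 199.9 CPM there. *NimC1* (25 and 8 counts there) and *eater* (2 and 0) were not tested, and *He* had 0 counts in every library. With spike-in scaling 1 of the 3 was called, and *srp* was not (adjusted p = 0.153). Of the pigment cell genes, *cn* was not tested, with 4 and 10 counts in testis against 0 and 1 in seminal vesicle. All 4 pigment cell genes tested rose in seminal vesicle (*Sox100B* 9.34-fold; *v* from 0.0603 and 0.642 to 7.92 and 7.18 CPM; *st* from 0.241 and 0.292 to 5.71 and 1.29 CPM), though *w* at 1.73-fold (adjusted p = 0.028) lost its call without testis replicate 1, testis replicate 2 or seminal vesicle replicate 1. Without either testis library 2 of the 4 were called. By library left out, the log2 fold change of *st* ran from 2.24 to 4.37, with its call lost without either testis library, and that of *v* from 3.61 to 6.84. Accessory gland genes summed to 6.94 to 8.75 CPM in testis and 18.8 to 42.8 CPM in seminal vesicle, where 5 of 6 tested were higher and *Acp36DE* was called only with the replicate block (adjusted p = 0.0519, and 0.00467 with the block) and without seminal vesicle replicate 2. *Acp36DE* made up most of the testis sum, at 8.56 and 6.59 CPM, and had 24.3 and 9.22 CPM in seminal vesicle. Among the other accessory gland genes *Acp53Ea* (5.31 and 2.57 CPM), *Acp26Aa* (4.49 and 1.07 CPM) and *SP* (1.39 and 1.39 CPM) were low in seminal vesicle. Without seminal vesicle replicate 1, 3 of the list were tested and 2 called. Both tested ejaculatory duct genes rose there, *Est-6* to 347 and 168 CPM and *Dup99B* to 15.5 and 3.11 CPM. Without seminal vesicle replicate 1 their log2 fold changes of 4.69 and 4.96 were 4.09 and 3.36. The muscle, hemocyte, pigment cell, accessory gland and ejaculatory duct lists all summed higher in seminal vesicle replicate 1 than in replicate 2. Among the markers *tj*, *zfh1*, *ptc* and, by a small margin, *magu* were also higher in replicate 1, and the part of these cells in those levels was not tested.

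**Figure D5:**
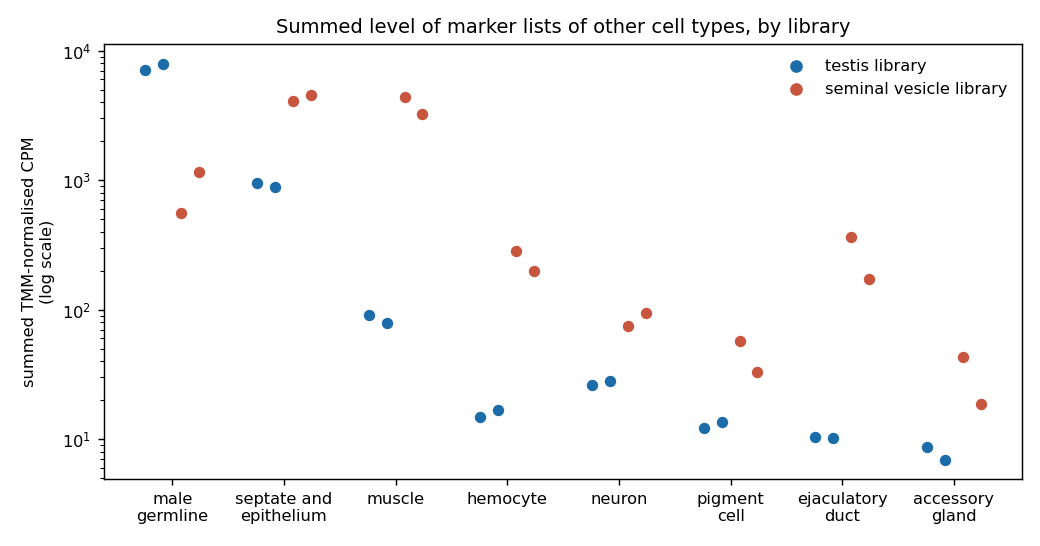
Summed TMM-normalised CPM of marker lists of other cell types in each library, on a log axis. Germline markers sum to 7074 and 7923 CPM in testis and to 557 and 1160.0 CPM in seminal vesicle, and every other list sums higher in both seminal vesicle libraries.

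At their loci the markers lay among genes that moved with them and genes that did not. The 9 genes lie on arms 2L (5 genes), 3R (2 genes) and 2R (2 genes) of the Release 6 assembly, and none shares exon bases with another gene on its own strand. *CG34171* lies within the span of *Fas3* on the same strand and had 364 and 329 counts in testis against 0 and 4 in seminal vesicle, opposite to its host. *Acp36DE*, described above, also lies within *Fas3*, on the other strand. *CG43231*, inside *CadN* on the other strand, fell with it (8.57-fold, adjusted p = 0.000289). *cpb* starts 220 bp beyond *chinmo* on the same strand and rose 8.58-fold while *chinmo* fell. *CG31457*, 188 bp from *hh* on the same strand, was not called (log2 fold change -0.29 ± 0.23) and was called toward testis with library size only and with spike-in factors. Other neighbours also moved with their marker. *CG43054* and *CadN2* beside *CadN* were lower in seminal vesicle. *unk* beside *hh*, *RpS26* beside *Fas3*, *Acsl* beside *ptc* and *sel* beside *magu* were higher there. These neighbours were chosen after their values were seen.

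Profiles over the 4 libraries were matched among 6217 tested genes with a proper name, by the largest log2 difference from the marker after each profile was centred. The nearest to *hh* were *Hnf4* (0.04) and *bark* (0.05), the nearest to *Fas3* were *hoka* (0.03) and *AnxB9* (0.07), and the nearest to *eya* were *yki* (0.01) and *eIF3h* (0.02). For *CadN* they were *wfs1* (0.01) and *Snp* (0.04), for *chinmo* *polyph* (0.07) and *Syt14* (0.09), and for *tj* *out* (0.09) and *Polr1F* (0.11). *zfh1* was matched by *Trf* and *eve* (0.14 each, *eve* resting on 2 and 1 seminal vesicle counts), *ptc* by *Caf1-180* (0.02) and *Pcd* (0.07), and *magu* by *pnt* (0.03) and *IntS11* (0.05). With 4 libraries of 2 tissues, a near match describes these libraries only.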

How the data were processed

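The deposited values are raw counts of reads per gene, 1 file per library, which the authors made without normalisation, per the labels and the file contents. Per the submitters' processing notes the tools were CASAVA 1.8.2, TopHat2 2.1.0 and HTSeq 0.6.1p1, with settings and strand handling not given in the sources used here. The series text names FlyBase release 6.06 and single-end reads of 50 bp, and the labels a stranded poly(A) kit. Library sizes and tests used gene rows only, without the 96 spike-in and 5 summary rows. Reads given to no gene were 11 to 14.2% of each file.

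Gene symbols (17172 of 17409 identifiers), positions and exon lengths came from Ensembl release 115 on the same Release 6 assembly. Of 137 list entries, 130 matched a row. Genes were filtered (filterByExpr, minimum count 10, minimum total 15), scaled by TMM and compared by the robust quasi-likelihood test of edgeR 4.0.16 in R 4.3.3 (adjusted p 0.05, Benjamini-Hochberg). Alternatives used DESeq2 1.42.0 and limma 3.58.1, other scalings, filters and a threshold of 0.01, and left out each library. Ratios per kb carry exact 95% intervals through the binomial share, for counting error only. A count of 0 allows 0.193 to 0.27 CPM (3 counts), by library size before TMM scaling. The steps were tested on simulated data in which few genes differed. In these tissues most genes differed, so that test does not bear on the choice of scaling.

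The members and lists were chosen with earlier results of these data known. Named genes are the markers, from each list the 2 most abundant genes by mean log CPM and at most 2 called genes that changed most, and the 2 nearest profiles of each marker. All other named genes were chosen after their values were seen, *grh*, *sax*, *sog*, *zfh2*, *sna*, *He*, *boi*, *Su(fu)* and *Mad* among them. Replicate numbers are taken to share a dissection day from the series text, which gives 2 days as the 2 replicates, though no label gives a day per library. Differences between replicates correlated at 0.0705 over genes between the tissues. P-values rest on the spread between these libraries, with the variance of a gene estimated partly from all genes tested. They do not measure the spread between single animals. Library pairs of a tissue differed by 16.6 and 48 times the counting noise (chi-square per degree of freedom), so none was a duplicate.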

Additional observations from a re-analysis of the deposited data

How the results depend on the processing

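Over 14 alternatives (13 for *tj*, which a filter of 5 CPM in 2 libraries removed), *zfh1*, *chinmo*, *Fas3*, *CadN*, *hh*, *ptc* and *magu* kept direction and call. For *tj*, the log2 fold change ran from -1.56 to -0.83 with each library left out, and its call ended without testis replicate 1, without testis replicate 2 and at a threshold of 0.01 (-1.12). For *eya* the value was -0.05 with library size only, -0.73 with spike-in factors, 0.44 with the stricter filter and called, and 0.28 to 0.41 with each library left out, where it was called without seminal vesicle replicate 1. Fits without a library leave 1 sample in a tissue and assume that it varies like the other.

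Spike-in factors moved the median of all genes from -0.11 to -1.17 and library size only to -0.49, so changes should be read against those shifts; the pools differed between tissues, which confounds spike-in scaling with tissue. The genes higher in seminal vesicle numbered 4944, and 3272 with spike-in factors, while those higher in testis went from 5223 to 6372. With the replicate block the numbers were 4834 and 5122, the markers again gave 4 and 4, and among markers the block changed no call.

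Other signs turned under spike-in factors for *w* (-0.28), *yki* (-0.73), *eIF3h* (-0.74), *boi* (-0.87), *Su(fu)* (-0.21), *sax* (-0.87) and *Mad* (-0.05). With library size only they turned for *yki* (-0.04), *eIF3h* (-0.06), *boi* (-0.18) and *sax* (-0.18). By library left out, values ran from -0.17 to 0.44 for *boi*, from -0.34 to 0.09 for *sog* and from -0.41 to 0.01 for *CG31457*, which crossed 0. The cause was not tested. At these depths *tj* in seminal vesicle, with 14 and 31 counts, had the lowest counts among the markers.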
